A study of Homo sapiens with 12 samples.

Results

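The 10 transcription factors described here direct blood cells towards the red cell or the myeloid lineage, and their RNA levels were followed in a leukaemia line treated with a pair of compounds. The 10 genes were chosen by symbol, with earlier results of these data known. Each matched 1 of the 20036 Ensembl identifiers in the table. The 8 genes GATA1, GATA2, KLF1, TAL1, NFE2, LMO2, ZFPM1 and GFI1B are taken here as erythroid factors and 2, SPI1 and CEBPA, as myeloid factors. MV-4-11, from which the RNA came, is a line of human acute myeloid leukaemia with an internal tandem duplication of FLT3 and a KMT2A fusion. It was sequenced in 4 groups of 3 libraries: the combination of crenolanib and HPA-12, crenolanib alone, HPA-12 alone, and DMSO. Crenolanib inhibits the FLT3 kinase, HPA-12 inhibits the ceramide transfer protein CERT, and DMSO is the solvent. All cells are labelled wild type for genotype and bone marrow for tissue. Treatment lasted 48 h in the 3 treated groups, no time is given for DMSO, and no doses were available to this work. All libraries come from 1 cell line, and nothing says whether the 3 libraries of a group were separate cultures, so the p-values cover only the library-to-library spread, which could be of technical origin.

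GATA1 and TAL1 sit at the centre of a DNA-bound complex in which LMO2 is the bridge and ZFPM1 (FOG1) a GATA1 cofactor. KLF1, which is itself under the control of GATA1 in red cell precursors, switches on the adult beta-globin gene. SPI1 (PU.1) and CEBPA drive monocytes and granulocytes, and PU.1 and GATA1 are known to bind each other and to block each other's activity. GATA2 acts earlier, in progenitors, and gives way to GATA1 as red cells mature.

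Levels are FPKM, fragment numbers divided by gene length and by the mapped fragments of the library, which allow levels of different genes to be compared per length. Group values are means with the SD of 3 libraries. Changes are log2 differences on the FPKM + 1 scale with the standard error of a limma fit of all 12 libraries, and the p-values were adjusted by Benjamini-Hochberg over 11149 genes, those that reached 1 FPKM in 3 or more libraries. The words rose, fell and changed are kept for genes whose adjusted p was below 0.05. All 10 factors passed the filter on low values, but GATA1, TAL1 and GFI1B were below 1 FPKM in every DMSO library and passed it through treated libraries. The FPKM + 1 scale understates changes of such low genes.

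The combination libraries stood apart from the rest. Their estimated depth was 4.40 to 5.07 M reads (M, mega), against 10.1 to 10.2 M reads with crenolanib, 12.1 to 12.8 M reads with HPA-12 and 13.6 to 16.0 M reads in DMSO. The 13 mitochondrially encoded genes held 62.2% of the summed FPKM on average in the combination libraries, 36.0% with crenolanib, 21.6% with HPA-12 and 19.8% in DMSO. The median change of all genes in combination vs DMSO was -0.62 as deposited and -0.11 after median-ratio scaling, and the share of calls that were rises was 20.8% as deposited, 32.8% after upper-quartile scaling and 45.0% after median-ratio scaling. The line's markers were present throughout: all 12 listed genes, FLT3, HOXA9 and MEIS1 among them, averaged at least 1 FPKM in each group, and their summed level was 171 to 195 FPKM in the combination libraries, 416 to 437 FPKM with crenolanib, 577 to 603 FPKM with HPA-12 and 411 to 428 FPKM in DMSO. In bulk RNA, fewer cells of a type and less RNA per cell cannot be told apart.

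GATA1, KLF1, TAL1 and GFI1B were the factors that rose most in combination vs DMSO. GATA1 (ENSG00000102145), the zinc finger protein that directs red cell and megakaryocyte development, had 46.0, 44.8 and 42.0 FPKM in combination libraries 1 to 3, 4.73, 4.92 and 4.87 FPKM in the crenolanib libraries, 1.09, 1.55 and 0.907 FPKM in the HPA-12 libraries, and 0.483, 0.427 and 0.513 FPKM in the DMSO libraries. The 4 groups did not overlap, and each treated group lay above DMSO. In linear terms the mean was 93.2 times that of DMSO with the combination, 10.2 times with crenolanib and 2.49 times with HPA-12. On the log2 scale GATA1 rose by 4.94 ± 0.13 in combination vs DMSO (limma adjusted p = 1.98e-11), by 1.99 ± 0.13 in crenolanib vs DMSO (adjusted p = 1.46e-07) and by 0.55 ± 0.13 in HPA-12 vs DMSO (adjusted p = 0.00307). At the estimated depths these levels correspond to 290 to 341 reads in the combination libraries, 71 to 75 with crenolanib, 17 to 28 with HPA-12 and 9 to 12 in DMSO. The DMSO and HPA-12 levels thus rest on few reads. Estimated reads were also few for KLF1, at 24 to 30 in DMSO and 27 to 34 with HPA-12. They were 19 to 31 for TAL1 in DMSO and 13 to 25 for GFI1B with HPA-12.

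KLF1 (ENSG00000105610) had 53.7, 32.0 and 27.4 FPKM in combination libraries 1 to 3, 7.76, 8.62 and 5.18 FPKM with crenolanib, 1.70, 1.65 and 1.31 FPKM with HPA-12, and 1.05, 1.10 and 1.35 FPKM in DMSO. The combination libraries were all above the crenolanib libraries, these were all above the rest, and HPA-12 overlapped DMSO. KLF1 rose by 4.10 ± 0.23 in combination vs DMSO (adjusted p = 1.96e-08) and by 1.90 ± 0.23 in crenolanib vs DMSO (adjusted p = 3.32e-05). In HPA-12 vs DMSO the difference was 0.24 ± 0.23 (adjusted p = 0.422), with a 95% interval of -0.30 to 0.77, and it passed in a fit of these groups alone (adjusted p = 0.0406). Its spread was the widest of the 10 factors in FPKM, with an SD of 14.0 around a mean of 37.7 FPKM in the combination libraries, of which library 1 was the high one.

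TAL1 (ENSG00000162367), a basic helix-loop-helix protein that binds E-boxes beside GATA1, had 14.1, 13.7 and 18.1 FPKM with the combination, 6.20, 5.08 and 6.73 FPKM with crenolanib, 1.16, 0.858 and 0.672 FPKM with HPA-12, and 0.208, 0.400 and 0.292 FPKM in DMSO. No groups overlapped. Of the 10 factors TAL1 had the largest ratio of means in crenolanib vs DMSO, and it rose by 2.42 ± 0.16 there (adjusted p = 1.69e-07). It rose by 3.64 ± 0.16 in combination vs DMSO (adjusted p = 1.79e-09) and by 0.54 ± 0.16 in HPA-12 vs DMSO (adjusted p = 0.0129). The HPA-12 call was lost without HPA-12 library 1 (0.44, adjusted p = 0.0577) or without DMSO library 1 (0.49, adjusted p = 0.0530).

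GFI1B (ENSG00000165702), a zinc finger repressor needed for red cells and platelets, had 9.90, 7.85 and 7.26 FPKM with the combination, 1.53, 1.25 and 1.45 FPKM with crenolanib, 0.329, 0.313 and 0.167 FPKM with HPA-12, and 0.553, 0.483 and 0.689 FPKM in DMSO. All HPA-12 libraries were below all DMSO libraries, and all libraries of the other treatments were above. GFI1B rose by 2.56 ± 0.14 in combination vs DMSO (adjusted p = 1.48e-08) and by 0.61 ± 0.14 in crenolanib vs DMSO (adjusted p = 0.00299). In HPA-12 vs DMSO the difference of -0.31 ± 0.14 did not pass (adjusted p = 0.0861), but it did with a fit of these groups alone (adjusted p = 0.00542) and with a pseudocount of 0.1 (-0.89, adjusted p = 0.0199).

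**Figure D1:**
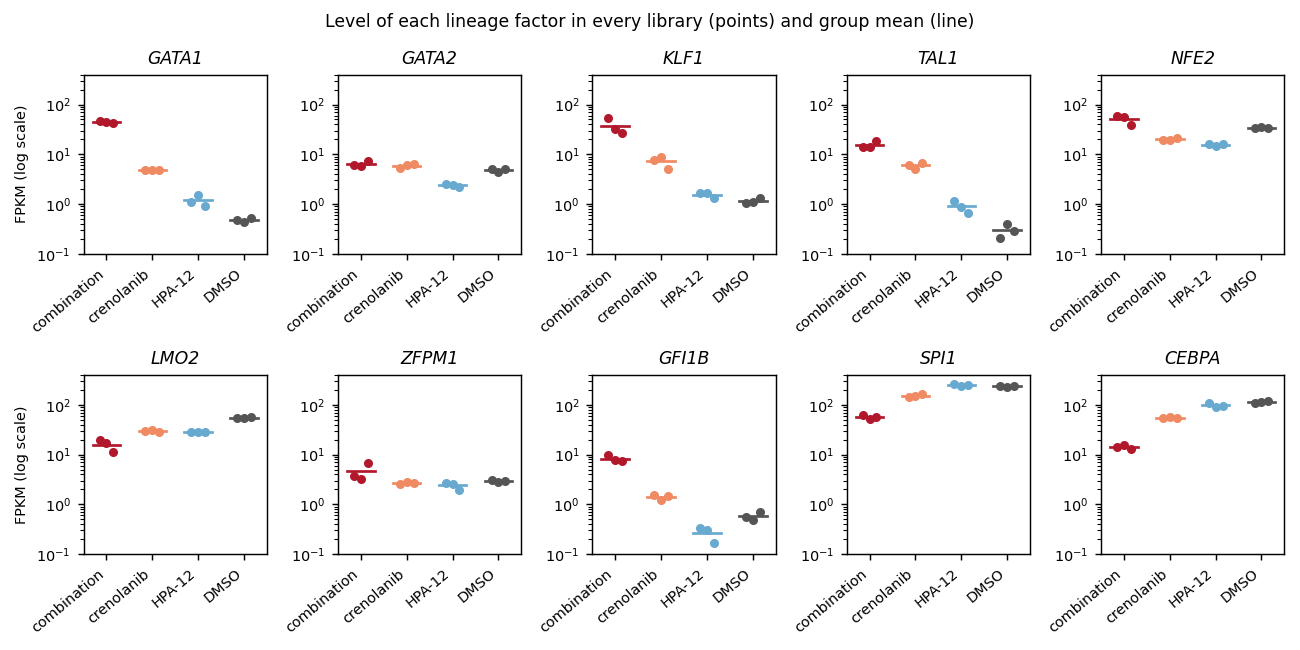
Level of the 10 factors in FPKM (log axis) in each of the 12 libraries, with 3 points and the mean (line) per group, from combination on the left to DMSO on the right. GATA1 averaged 44.3 FPKM with the combination and 0.475 FPKM in DMSO, with no overlap, and SPI1 and CEBPA ran the other way, with 57.3 FPKM for SPI1 with the combination against 235 FPKM in DMSO.

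The promoters of these factors are shown because the factors are known to regulate each other. Windows of 250 bases before to 50 bases after the annotated start site, from RefSeq on GRCh38.p14, matched 7 of the 10 factors, with 10 windows in all, since GATA2, TAL1 and GFI1B have 2 each. NFE2, LMO2 and SPI1 had no window. Shown are 1 window each of the 4 factors that rose most and of CEBPA, which fell. Capitals mark matches on either strand to a GATA motif (GATAA or GATAG with A or T just before it) and to a KLF motif (CCNCNCCC, or its reverse complement). Positions count from the start site, with -1 the last base before it.
GATA1, chrX:48786340-48786639, plus strand: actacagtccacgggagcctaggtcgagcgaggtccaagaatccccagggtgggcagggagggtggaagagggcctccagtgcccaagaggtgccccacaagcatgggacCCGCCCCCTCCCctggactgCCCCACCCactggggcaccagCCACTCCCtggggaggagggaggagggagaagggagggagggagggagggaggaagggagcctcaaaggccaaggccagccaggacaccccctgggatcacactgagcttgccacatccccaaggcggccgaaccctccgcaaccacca
KLF1, chr19:12887152-12887451, minus strand: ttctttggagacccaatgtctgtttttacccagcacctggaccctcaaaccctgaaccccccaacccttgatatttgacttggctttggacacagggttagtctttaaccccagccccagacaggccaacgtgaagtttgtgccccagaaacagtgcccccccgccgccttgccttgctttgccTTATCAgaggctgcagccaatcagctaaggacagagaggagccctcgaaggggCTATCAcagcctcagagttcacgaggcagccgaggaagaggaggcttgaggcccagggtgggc
TAL1, chr1:47232286-47232585, minus strand: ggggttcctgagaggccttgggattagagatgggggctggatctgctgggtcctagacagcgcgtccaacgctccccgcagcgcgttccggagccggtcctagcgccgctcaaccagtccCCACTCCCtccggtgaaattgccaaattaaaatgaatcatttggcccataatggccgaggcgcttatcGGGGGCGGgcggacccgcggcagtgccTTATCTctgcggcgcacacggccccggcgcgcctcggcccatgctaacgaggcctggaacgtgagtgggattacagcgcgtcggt
GFI1B, chr9:132978444-132978743, plus strand: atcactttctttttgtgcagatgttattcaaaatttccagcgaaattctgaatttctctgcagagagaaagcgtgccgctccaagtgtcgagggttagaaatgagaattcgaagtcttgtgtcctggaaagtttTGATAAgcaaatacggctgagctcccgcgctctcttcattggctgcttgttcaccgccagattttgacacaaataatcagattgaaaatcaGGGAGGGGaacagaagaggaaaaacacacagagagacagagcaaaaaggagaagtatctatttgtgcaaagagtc
CEBPA, chr19:33302485-33302784, minus strand: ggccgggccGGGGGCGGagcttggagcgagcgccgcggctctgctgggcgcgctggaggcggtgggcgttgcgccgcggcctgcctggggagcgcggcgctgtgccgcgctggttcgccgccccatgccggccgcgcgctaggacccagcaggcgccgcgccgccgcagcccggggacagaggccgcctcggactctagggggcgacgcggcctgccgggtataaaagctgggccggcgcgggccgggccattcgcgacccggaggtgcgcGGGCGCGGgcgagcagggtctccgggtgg
KLF1 held a GATA motif at -66 to -61 and another at -13 to -8, and no KLF motif. The TAL1 window at chr1:47232286-47232585 held 1 GATA motif, at -35 to -30, and its other window, not shown, held no GATA or KLF motif. GFI1B held 1 GATA motif at -116 to -111 in the window shown and 1 at 4 to 9 in its other window. The GATA1 window held no GATA motif and 4 KLF motifs, of which 2 overlapped. CEBPA held no GATA motif and 2 KLF motifs.

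A GATA motif was thus present in 4 of the 10 windows, against 25.0% of all 35114 windows of this length. The KLF motif, in 56.2% of all windows, was in every window of the factors except that of KLF1 and 1 each of TAL1 and GFI1B. An E-box (CANNTG), the motif of TAL1 and its partners, was in 5 of the 10 windows, against 68.7% of all windows. None of the 10 windows held GGAAGT, the core of the PU.1 motif (22.8% of all windows), or TTGCNNCAA, the C/EBP motif (1.98%). A match describes letters in this window and is not a binding site, and the absence of a match says nothing of the factor.

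**Figure D2:**
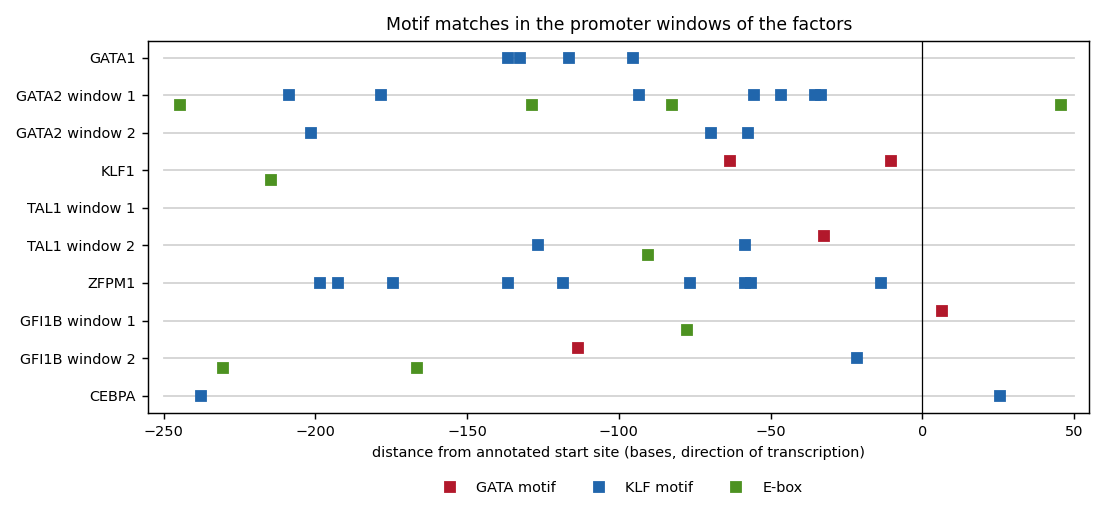
Matches to the GATA motif, the KLF motif and the E-box in the 10 promoter windows, by distance from the annotated start site in bases along the direction of transcription. GATA motifs fall in KLF1 (2), in 1 TAL1 window and in both GFI1B windows (1 each), and KLF motifs are most numerous in ZFPM1 (9) and in the first GATA2 window (7).

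GATA2, NFE2, LMO2 and ZFPM1 did not share 1 direction in combination vs DMSO. GATA2 (ENSG00000179348) had 6.01, 5.90 and 7.16 FPKM with the combination, 5.30, 6.12 and 6.44 FPKM with crenolanib, 2.52, 2.36 and 2.23 FPKM with HPA-12, and 5.12, 4.50 and 5.18 FPKM in DMSO. The HPA-12 libraries were the low ones, and the combination and crenolanib libraries overlapped. GATA2 fell by 0.81 ± 0.12 on the log2 scale in HPA-12 vs DMSO (adjusted p = 0.000162). In crenolanib vs DMSO the difference was 0.23 ± 0.12 (adjusted p = 0.131, 95% interval -0.05 to 0.51), and it passed with mitochondrial genes excluded from library totals (0.34, adjusted p = 0.0342). Mast cells also use GATA2. Markers of mast cells and basophils summed to 7.14 to 8.88 FPKM with HPA-12, 27.3 to 36.0 FPKM with crenolanib and 43.0 to 53.1 FPKM in DMSO. In HPA-12 vs DMSO 4 of the 6 markers tested fell, beside 23% of all genes. Their part in the GATA2 result was not tested. In combination vs DMSO GATA2 rose by 0.31 ± 0.12 (adjusted p = 0.0376), a call that was lost in a fit of these groups alone (adjusted p = 0.104), without combination library 3 (0.23, adjusted p = 0.0851) and without any 1 of DMSO libraries 1 to 3 (0.33, 0.26 and 0.34, adjusted p = 0.0656, 0.137 and 0.0620). The call was lost in 7 of the 14 alternatives run, with limma adjusted p up to 0.248. The value was larger after median-ratio scaling (0.91, adjusted p = 6.44e-05), after upper-quartile scaling (0.66, adjusted p = 0.000583) and with mitochondrial genes excluded from library totals (0.43, adjusted p = 0.00791).

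NFE2 (ENSG00000123405), the large subunit of the NF-E2 complex that binds globin control regions and is also needed for platelets, had 59.3, 54.8 and 39.1 FPKM with the combination, 19.7, 19.4 and 21.0 FPKM with crenolanib, 16.0, 14.6 and 15.7 FPKM with HPA-12, and 33.8, 34.5 and 34.4 FPKM in DMSO. DMSO lay between the combination libraries above and the libraries of either single compound below, with no overlap. NFE2 rose by 0.54 ± 0.13 in combination vs DMSO (adjusted p = 0.0021), whereas it fell by 0.74 ± 0.13 in crenolanib vs DMSO (adjusted p = 0.000382) and by 1.10 ± 0.13 in HPA-12 vs DMSO (adjusted p = 2.15e-05). In combination vs DMSO the value moved to 1.22 after median-ratio scaling, 0.94 after upper-quartile scaling and 0.68 with mitochondrial genes excluded from library totals.

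LMO2 (ENSG00000135363) was the erythroid factor that fell in each comparison with DMSO. It had 19.2, 17.0 and 11.3 FPKM with the combination, 29.1, 31.1 and 27.8 FPKM with crenolanib, 28.2, 27.8 and 28.2 FPKM with HPA-12, and 54.7, 53.2 and 56.0 FPKM in DMSO. DMSO was highest, the combination libraries were lowest, and the single compounds overlapped. LMO2 fell by 1.76 ± 0.14 in combination vs DMSO (adjusted p = 4.96e-07), by 0.88 ± 0.14 in crenolanib vs DMSO (adjusted p = 0.000319) and by 0.94 ± 0.14 in HPA-12 vs DMSO (adjusted p = 0.000215). With median-ratio scaling the change in combination vs DMSO was -1.09.

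ZFPM1 (ENSG00000179588) stayed low, at 3.69, 3.23 and 6.88 FPKM with the combination, 2.52, 2.86 and 2.66 FPKM with crenolanib, 2.74, 2.53 and 1.98 FPKM with HPA-12, and 3.11, 2.75 and 2.98 FPKM in DMSO. Combination library 3 was the high one. None of the comparisons with DMSO passed as deposited: 0.45 ± 0.20 with the combination (adjusted p = 0.0663), -0.10 ± 0.20 with crenolanib (adjusted p = 0.695) and -0.21 ± 0.20 with HPA-12 (adjusted p = 0.413). The combination value passed after median-ratio scaling (1.01, adjusted p = 0.00175), after upper-quartile scaling (0.78, adjusted p = 0.00689) and with mitochondrial genes excluded from library totals (0.56, adjusted p = 0.0303). It also passed without combination library 1 (0.55, adjusted p = 0.0400) or library 2 (0.62, adjusted p = 0.0133), and was 0.18 (adjusted p = 0.232) without library 3.

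Both myeloid factors fell with crenolanib and with the combination. SPI1 (ENSG00000066336) had 61.3, 52.6 and 58.2 FPKM with the combination, 142, 148 and 164 FPKM with crenolanib, 264, 243 and 255 FPKM with HPA-12, and 236, 230.2 and 238 FPKM in DMSO. The groups did not overlap, and HPA-12 was slightly above DMSO. SPI1 fell by 2.02 ± 0.07 in combination vs DMSO (adjusted p = 2.31e-10) and by 0.63 ± 0.07 in crenolanib vs DMSO (adjusted p = 1.07e-05). After median-ratio scaling the combination value was -1.33. In HPA-12 vs DMSO the difference was 0.11 ± 0.07 (adjusted p = 0.182, 95% interval -0.04 to 0.27), and it passed in a fit of these groups alone (adjusted p = 0.0421) and with mitochondrial genes excluded from library totals (0.22, adjusted p = 0.0119).

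CEBPA (ENSG00000245848) fell further than SPI1 in both comparisons. It had 14.2, 15.9 and 13.0 FPKM with the combination, 54.2, 57.0 and 54.7 FPKM with crenolanib, 107, 91.5 and 96.2 FPKM with HPA-12, and 108, 114 and 118 FPKM in DMSO. The groups did not overlap, with 1 HPA-12 library close to the lowest DMSO library. CEBPA fell by 2.89 ± 0.08 in combination vs DMSO (adjusted p = 4.48e-11) and by 1.02 ± 0.08 in crenolanib vs DMSO (adjusted p = 1e-06). In HPA-12 vs DMSO the difference of -0.21 ± 0.08 lay at the threshold (adjusted p = 0.0504), and it passed in a fit of these groups alone (adjusted p = 0.00742) and without HPA-12 library 1 (-0.27, adjusted p = 0.0265). Whether CEBPA differed from SPI1 in its change was not tested.

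Counted together, 9 of the 10 factors changed in combination vs DMSO, as did 71.3% of all genes tested. There 6 of the 8 erythroid factors rose and 1 fell, where 14.8% of all genes rose and 56.5% fell, and both myeloid factors fell. The median change was 1.55 over the erythroid factors and -2.45 over the myeloid ones, against -0.62 over all genes. All 10 factors had groups without overlap, as had 71.4% of all genes. In crenolanib vs DMSO 8 of the 10 changed (56.3% of all genes), and 9 had groups without overlap (77.8% of all genes). There 4 of the 8 erythroid factors rose and 2 fell, against 27.4% and 28.9% of all genes, and both myeloid factors fell. In HPA-12 vs DMSO 5 of the 10 changed (50.7% of all genes), and 9 had groups without overlap (79.5% of all genes). There 2 erythroid factors rose and 3 fell, against 27.7% and 23% of all genes, and neither myeloid factor passed. With the fit of these groups alone, 4 of the 10 factors rose and 5 fell in HPA-12 vs DMSO, beside 43.2% and 34.6% of all genes in the same fit. All 3 comparisons share the same DMSO libraries. The factors were chosen with earlier results of these data known. GATA1, TAL1 and GFI1B passed the filter through treated libraries and had little room to fall. Counts here and in the later comparisons thus describe the factors and do not test them against all genes.

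**Figure D3:**
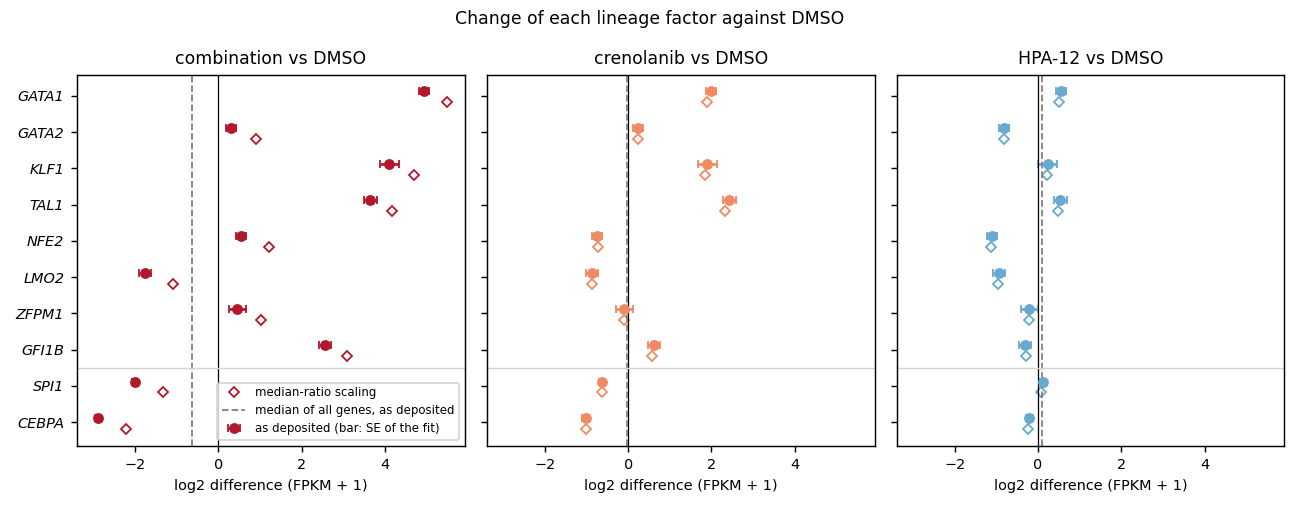
Log2 difference of each factor against DMSO (FPKM + 1 scale, bars are the standard error of the fit) with the combination, crenolanib and HPA-12, as deposited (filled) and after median-ratio scaling (open). The dashed line is the median of all genes, -0.62 with the combination, and after median-ratio scaling all 10 points of that panel lie further to the right, SPI1 at -1.33 and CEBPA at -2.23.

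Ranks within a library do not depend on how libraries are scaled to each other. GATA1 ranked 460 to 491 among 20036 genes by FPKM in the combination libraries, 6454 to 6601 with crenolanib, 9430 to 10324 with HPA-12 and 10899 to 11174 in DMSO. SPI1 ranked 340 to 400 with the combination, 121 to 144 with crenolanib, 73 to 76 with HPA-12 and 99 to 101 in DMSO. CEBPA ranked 1512 to 1966 with the combination and 254 to 290 in DMSO, and LMO2 1230 to 2292 and 700 to 727. NFE2 ranked 351 to 536 with the combination and 1224 to 1285 in DMSO, GATA2 3571 to 4205 and 5998 to 6480, and ZFPM1 3697 to 6283 and 7392 to 7779. By rank GATA1, NFE2, GATA2 and ZFPM1 stood higher and SPI1, CEBPA and LMO2 lower in every combination library than in every DMSO library. Ranks still move with depth and with the other genes: 7894 to 8049 genes were at 0 in the combination libraries and 5137 to 5217 in DMSO, so a higher rank alone does not show that a gene rose.

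Plain FPKM ratios of 2 factors within a library are free of that scaling as well. GATA1 was at 75.0, 85.2 and 72.2% of the SPI1 level in the combination libraries, at 3.34, 3.31 and 2.98% with crenolanib, at 0.412, 0.639 and 0.356% with HPA-12, and at 0.205, 0.185 and 0.216% in DMSO. SPI1 thus stayed the higher of the pair in every library, by 463 to 539 times in DMSO and by 1.17 to 1.39 times with the combination. The difference of the mean log2 ratio from DMSO, with a pseudocount of 1, was 6.95 with the combination, 2.62 with crenolanib and 0.44 with HPA-12. The pseudocount weighs on GATA1 where it is below 1 FPKM, and at 0.1 the differences were 8.30, 3.74 and 1.02. KLF1 was at 47.0 to 87.6% of SPI1 with the combination and at 0.444 to 0.567% in DMSO, and TAL1 at 23.1 to 31.1% and at 0.0884 to 0.174%. GFI1B was at 12.5 to 16.2% of SPI1 with the combination, at 0.843 to 1.08% with crenolanib, at 0.0654 to 0.129% with HPA-12 and at 0.210 to 0.290% in DMSO.

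The order of the pair of GATA factors turned over with the combination. GATA2 did not fall there, averaging 6.36 FPKM against 4.93 FPKM in DMSO. With HPA-12 GATA2 averaged 2.37 FPKM, so a lower GATA2 is part of the higher GATA1 to GATA2 ratio in that group. GATA1 was at 5.86 to 7.64 times the GATA2 level in the combination libraries, 0.756 to 0.894 times with crenolanib, 0.407 to 0.656 times with HPA-12, and 0.0945 to 0.0992 times in DMSO, so GATA1 exceeded GATA2 in the combination libraries and in no other library. Against its bridging partner LMO2, GATA1 was at 2.39 to 3.73 times with the combination, 0.158 to 0.175 times with crenolanib, 0.0322 to 0.0556 times with HPA-12 and 0.00802 to 0.00917 times in DMSO. Between the myeloid factors, CEBPA was at 22.4 to 30.3% of SPI1 with the combination, 33.5 to 38.4% with crenolanib, 37.7 to 40.4% with HPA-12 and 45.7 to 49.6% in DMSO.

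**Figure D4:**
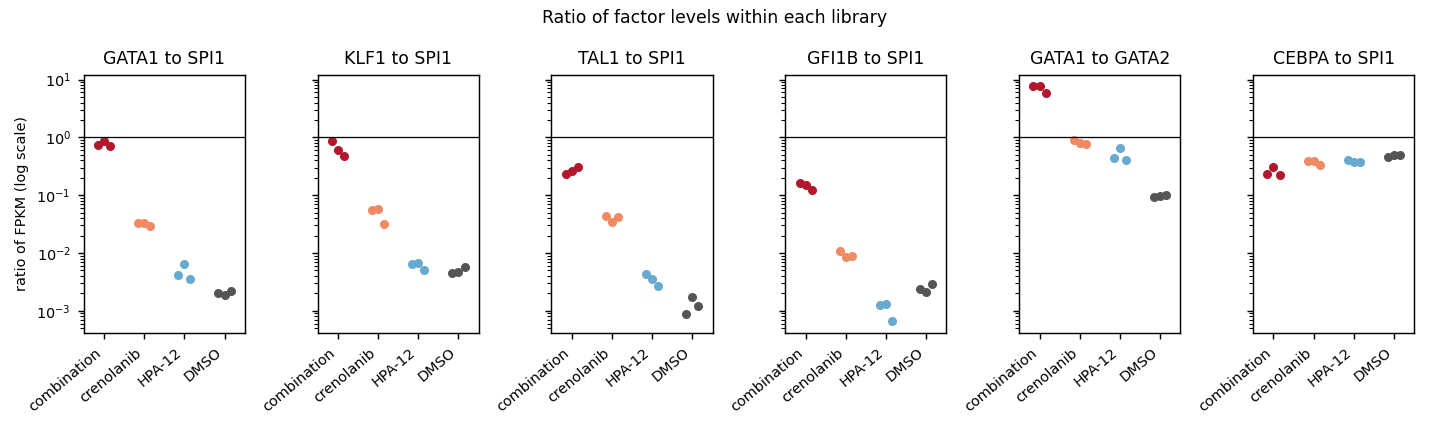
Ratio of FPKM of 2 factors within each of the 12 libraries (log axis, 3 points per group), for GATA1, KLF1, TAL1 and GFI1B over SPI1, GATA1 over GATA2 and CEBPA over SPI1. The line marks equal levels, which GATA1 over GATA2 passed in the 3 combination libraries (5.86 to 7.64) and in no other library.

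The combination was next set against each compound alone. In combination vs crenolanib, 6 of the 8 erythroid factors rose and 1 fell, against 8.78% and 61.2% of all genes. With the myeloid factors 9 of 10 changed, against 70% of all genes, and 9 of 10 had groups without overlap, against 64.9%. GATA1 rose by 2.95 ± 0.13 (adjusted p = 1.03e-08), KLF1 by 2.21 ± 0.23, GFI1B by 1.95 ± 0.14, NFE2 by 1.29 ± 0.13 and TAL1 by 1.22 ± 0.16. SPI1 fell by 1.38 ± 0.07 and CEBPA by 1.87 ± 0.08. After median-ratio scaling the values were 1.96 for NFE2, 1.85 for TAL1, 1.10 for ZFPM1, -0.71 for SPI1 and -1.22 for CEBPA, and all 5 passed. GATA2 did not pass (0.08 ± 0.12, adjusted p = 0.559, 95% interval -0.20 to 0.36), but did after median-ratio scaling (0.68, adjusted p = 0.000965). ZFPM1 rose by 0.55 ± 0.20 (adjusted p = 0.0305), which was lost in a fit of these groups alone (adjusted p = 0.115), without combination library 3 (0.28, adjusted p = 0.0728) and without any 1 of crenolanib libraries 1 to 3 (0.52, 0.59 and 0.55, adjusted p = 0.0799, 0.0521 and 0.0678). LMO2 fell by 0.88 ± 0.14, and this call was lost after median-ratio scaling (-0.23, adjusted p = 0.228).

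In combination vs HPA-12, 7 of the 8 erythroid factors rose and LMO2 fell, against 14.5% and 57.8% of all genes. All 10 factors changed, against 72.3% of all genes, and all 10 had groups without overlap, against 70.7%. The rises were 4.38 ± 0.13 for GATA1, 3.87 ± 0.23 for KLF1, 3.10 ± 0.16 for TAL1, 2.87 ± 0.14 for GFI1B, 1.64 ± 0.13 for NFE2 and 1.12 ± 0.12 for GATA2. ZFPM1 rose by 0.66 ± 0.20 (adjusted p = 0.0117), and this was lost in a fit of these groups alone (adjusted p = 0.0666) and without HPA-12 library 3 (0.57, adjusted p = 0.0509). LMO2 fell by 0.82 ± 0.14 as deposited, against -0.13 (adjusted p = 0.460) after median-ratio scaling. SPI1 fell by 2.13 ± 0.07 and CEBPA by 2.69 ± 0.08. After median-ratio scaling the values were 1.72 for GATA2, 1.23 for ZFPM1, -1.41 for SPI1 and -1.99 for CEBPA, and all 4 passed.

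The single compounds also differed from each other. In crenolanib vs HPA-12, 6 erythroid factors rose and none fell, against 19.5% and 21.6% of all genes. With the myeloid factors 8 of 10 changed, against 41.2% of all genes, and 8 of 10 had groups without overlap, against 68.9%. TAL1 was higher with crenolanib by 1.89 ± 0.16, KLF1 by 1.66 ± 0.23, GATA1 by 1.43 ± 0.13, GATA2 by 1.04 ± 0.12 and GFI1B by 0.93 ± 0.14. NFE2 was higher by 0.36 ± 0.13 (adjusted p = 0.0404), a call that ended without any 1 of the 6 libraries compared (0.32 to 0.38, adjusted p = 0.0746 to 0.118). LMO2 (0.06 ± 0.14, 95% interval -0.27 to 0.39) and ZFPM1 (0.11 ± 0.20, -0.36 to 0.58) did not pass. SPI1 was lower with crenolanib by 0.74 ± 0.07 and CEBPA by 0.81 ± 0.08. The doses of the compounds were not available.

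The HPA-12 effect was then compared with and without crenolanib, as combination vs crenolanib minus HPA-12 vs DMSO. Of the 8 erythroid factors 7 had a positive difference that passed, against 15.4% of all genes, and both myeloid factors a negative one, against 50% of all genes. In all, 9 of 10 passed, as did 65.4% of all genes. The difference was 2.40 ± 0.18 for GATA1 (adjusted p = 4.02e-07), 2.39 ± 0.18 for NFE2, 2.26 ± 0.20 for GFI1B, 1.97 ± 0.33 for KLF1, 0.90 ± 0.17 for GATA2, -1.50 ± 0.09 for SPI1 and -1.67 ± 0.11 for CEBPA. After median-ratio scaling it was 1.49 for GATA2, 1.37 for TAL1, -0.79 for SPI1 and -0.99 for CEBPA, all of which passed. For NFE2 the parts had opposite signs, a rise of 1.29 in combination vs crenolanib and a fall of 1.10 in HPA-12 vs DMSO. TAL1 (0.68 ± 0.22, adjusted p = 0.0172) depended on the pseudocount, with 0.02 (adjusted p = 0.960) at a pseudocount of 0.1. ZFPM1 (0.76 ± 0.29, adjusted p = 0.0354) lost its call without any 1 of 8 libraries, namely each crenolanib and DMSO library and HPA-12 libraries 2 and 3 (0.67 to 0.80, adjusted p = 0.0508 to 0.0869), and with mitochondrial genes excluded from library totals (0.69, adjusted p = 0.0533). Its value was 1.32 after median-ratio scaling and 0.49 without combination library 3, and passed in both. LMO2 did not pass (0.06 ± 0.20, adjusted p = 0.820), but did without combination library 3 (0.27, adjusted p = 0.0295) and after median-ratio scaling (0.73, adjusted p = 0.0108).

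The targets and partners of the factors were read from lists chosen with earlier results of these data known. Of 44 textbook GATA1 and KLF1 target genes 40 were tested, and in combination vs DMSO 38 rose and none fell (median 3.75, against -0.62 over all genes, of which 14.8% rose and 56.5% fell). Of the 44, 19 averaged at least 1 FPKM in DMSO and 41 with the combination. Targets near the floor in DMSO passed the filter through treated libraries and had little room to fall. The count is therefore not an even comparison with all genes. SLC4A1, the anion exchanger band 3 of the red cell membrane, had 545 ± 46.2 FPKM with the combination, 68.1 ± 2.18 FPKM with crenolanib, 6.79 ± 0.210 FPKM with HPA-12 and 2.36 ± 0.449 FPKM in DMSO. UROS, an enzyme of haem synthesis (0.27 ± 0.14, adjusted p = 0.0957), and TSPAN33 (-0.23 ± 0.25, adjusted p = 0.436), both named after their values were seen, did not pass. With crenolanib 30 of the 40 rose and 4 fell (median 1.63), beside 27.4% and 28.9% of all genes, and with HPA-12 16 rose and 7 fell (median 0.24), beside 27.7% and 23%. HBA1 and HBA2, and HBG1 and HBG2, are near-identical pairs, so reads may be split between them.

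Of 30 textbook PU.1 and C/EBP target genes 29 were tested, and in combination vs DMSO 17 fell and 6 rose (median -0.76), beside 56.5% and 14.8% of all genes. The fall was -2.40 ± 0.11 for CSF2RB, a receptor chain for GM-CSF, and -1.27 ± 0.06 for CST3, a protease inhibitor, which was at -0.57 after median-ratio scaling. LTF, lactoferrin of neutrophil granules, rose by 3.58 ± 0.12, with 38.8 ± 2.92 FPKM in the combination libraries and 2.33 ± 0.440 FPKM in DMSO. After median-ratio scaling 14 fell and 9 rose, beside 33.8% and 27.7% of all genes. With crenolanib 14 fell and 4 rose (median -0.20), beside 28.9% and 27.4% of all genes, and with HPA-12 16 fell and 6 rose (median -0.54), beside 23% and 27.7%. In combination vs HPA-12 14 fell and 10 rose (median -0.16), beside 57.8% and 14.5% of all genes. The list summed to 1947 to 2048 FPKM with the combination, 2175 to 2283 FPKM with crenolanib, 1534 to 1601 FPKM with HPA-12 and 2901 to 3024 FPKM in DMSO. It was thus lowest with HPA-12, where SPI1 was highest.

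Of 26 genes listed as partners and cofactors of the GATA1-TAL1 complex, 20 fell and 5 rose in combination vs DMSO (median -0.79), beside 56.5% and 14.8% of all genes. After median-ratio scaling 10 fell and 8 rose, beside 33.8% and 27.7% of all genes. Those with the smallest p included 2 subunits of the NuRD chromatin complex, MTA2 (-1.85 ± 0.07) and GATAD2A (-2.02 ± 0.08). The others were TCF3 (-1.47 ± 0.07), the E-protein partner of TAL1, and NFE2L1 (-1.91 ± 0.08). NFE2L1 is a relative of NFE2 and not a known partner in the GATA1-TAL1 complex. All 4 also fell under the 3 other scalings, MTA2 by 1.17 and TCF3 by 0.79 after median-ratio scaling. Among 18 tested other factors of red cell development 8 rose and 8 fell in combination vs DMSO, beside 14.8% and 56.5% of all genes. Those with the smallest p included HEMGN (8.07 ± 0.16), a nuclear protein of red cell precursors, and TRIM10 (4.45 ± 0.15). KLF3, a repressor activated by KLF1 in mouse, rose by 2.53 ± 0.11, and KLF13 fell (-1.27 ± 0.07, and -0.59 after median-ratio scaling). Among 19 tested other factors of myeloid development 7 rose and 9 fell, beside the same shares of all genes, with the early response genes JUN (6.93 ± 0.06), FOS (5.32 ± 0.06), EGR1 (6.77 ± 0.10) and JUNB (2.80 ± 0.05) having the smallest p. Among those that fell, named after their values were seen, were IRF8 (-2.55 ± 0.12), a factor of monocytes and dendritic cells, and GFI1 (-1.83 ± 0.15), a repressor of granulocyte development.

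**Figure D5:**
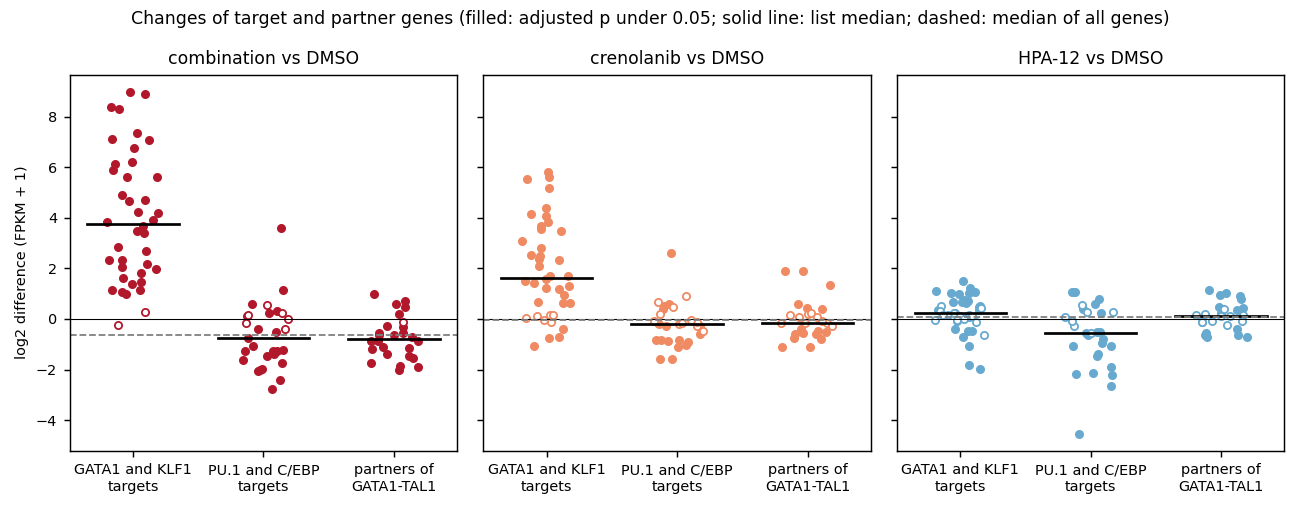
Log2 difference against DMSO (FPKM + 1 scale) of every tested gene of the target and partner lists with the combination, crenolanib and HPA-12; filled points passed at an adjusted p below 0.05, the solid line is the list's median and the dashed line that of all genes. The GATA1 and KLF1 targets sit at a median of 3.75 with the combination, 1.63 with crenolanib and 0.24 with HPA-12, and the PU.1 and C/EBP targets at -0.76, -0.20 and -0.54.

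Markers of other cell types gave a mixed picture beside these changes. Of 18 megakaryocyte genes 4 were tested. In combination vs DMSO TUBB1 (1.40 ± 0.21) and ITGA2B (1.08 ± 0.24) rose and PLEK fell (-1.60 ± 0.13), beside 14.8% and 56.5% of all genes. The list summed to 48.7 to 76.8 FPKM in the combination libraries and 148 to 154 FPKM in DMSO. By number, 5 of its genes averaged at least 1 FPKM with the combination and 3 in DMSO. Genes at 0 in every library of the group numbered 7 with the combination and 4 in DMSO. PF4, a platelet gene, was at 0 in every library, and PPBP, another, in every DMSO library but not in every combination library. Of 10 mast cell and basophil genes 6 were tested, of which 3 rose and 2 fell in combination vs DMSO, beside 14.8% and 56.5% of all genes. That list summed to 27.8 to 52.9 FPKM with the combination and 43.0 to 53.1 FPKM in DMSO, with TPSAB1, FCER1A, CMA1 and PRG2 at 0 in every combination library. Lymphoid markers summed to 27.9 to 30.5 FPKM with the combination and 65.1 to 66.8 FPKM in DMSO, with CD2 and CD79B at 0 in every combination library. Stromal and epithelial markers summed to 12.3 to 29.1 FPKM with the combination, 27.7 to 32.3 FPKM with crenolanib, 63.0 to 66.4 FPKM with HPA-12 and 15.8 to 17.4 FPKM in DMSO, with KRT19 at 0 in every library. Of the 3 tested, 2 rose in HPA-12 vs DMSO, beside 27.7% of all genes, and their part in the HPA-12 results was not tested. The part of the lower depth and the higher mitochondrial share in these results was not tested.

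Over HPA-12, crenolanib and combination vs DMSO, the genes nearest to GATA1 in pattern were sought among 6223 named genes averaging 5 FPKM or more, by the root mean square difference of the 3 log2 changes. Among the nearest were HBQ1, the theta-globin gene, at 0.15 log2 units, and SPTB, the beta chain of spectrin, at 0.26. HBQ1 averaged 49.5 FPKM with the combination and 0.303 FPKM in DMSO. The genes nearest to SPI1 were WDR81 at 0.035, SLA at 0.046, NLGN2 at 0.052 and CANT1 at 0.053. WDR81 averaged 6.17 FPKM with the combination and 26.8 FPKM in DMSO. These distances describe 12 libraries that share 1 DMSO group.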

How the data were processed

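The authors deposited 1 table of FPKM with a column per library, per the file headers. Aligner, counting, build and annotation were not given in the sources used here. Titles and columns spell crenolanib's short name in 2 ways, read as the same compound, and 0 columns were left over. Symbols were found for 20011 of 20036 Ensembl identifiers.

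Log2(FPKM + 1) of genes reaching 1 FPKM in 3 or more libraries was fitted with limma 3.58.1 (statmod 1.5.0, R 4.3.3). The fit had 1 factor with 4 levels and trended, robust moderation. It was also run on simulated data, with changes placed only in genes well above the DMSO levels of GATA1, KLF1, TAL1 and GFI1B. That run therefore does not test the fit at such low levels. The interaction is the HPA-12 effect with crenolanib minus that without it. All groups share 1 estimate of spread. Alternatives were a pseudocount of 0.1, other filters, 3 scalings, a fit of the compared groups alone, group weights, a replicate block and leaving out each library. Depth is an estimate: FPKM times GENCODE 29 exon length was scaled until the most values under 20 reads came out whole within 0.01 read, which 30.7 to 39.6% did. FPKM give no counts, so no counting intervals are printed. The 10 factors and all lists were chosen with earlier results of these data known. Named are all 10 factors, up to 4 genes per list with the smallest p among those that passed, and the 4 genes nearest in pattern to GATA1 and to SPI1; of these, HBB, CA1, ALAS2 and a few others are not reported here. Marker genes given at 0 were named after their values were seen.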

Additional observations from a re-analysis of the deposited data

Results flagged for a closer look

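The effect of adding HPA-12 differed with and without crenolanib for 9 of the 10 factors, by the limma test of the difference itself (combination vs crenolanib minus HPA-12 vs DMSO, log2). It was 2.40 for GATA1, 2.39 for NFE2, 2.26 for GFI1B, 1.97 for KLF1, 0.90 for GATA2, 0.76 for ZFPM1 and 0.68 for TAL1. It was -1.50 for SPI1 and -1.67 for CEBPA. The TAL1 difference depended on the pseudocount, with 0.02 (limma adjusted p = 0.960) at 0.1. The ZFPM1 call was lost in 11 of 19 alternatives. The median difference over all genes was -0.65, and 65.4% of all genes passed the same test.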

How the results depend on the processing

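The 12 libraries of 1 line, FPKM without counts, shallow combination libraries and the choice of scaling limit these results. GATA1, KLF1, GFI1B, NFE2, LMO2, SPI1 and CEBPA kept direction and call in combination vs DMSO under every alternative run, and so did TAL1. In HPA-12 vs DMSO the number of factors called was 5, and 9 with group weights (77.3% of all genes) and 9 in a fit of the compared groups alone (77.8% of all genes). With a pseudocount of 0.1 the log2 ratio of GATA1 to SPI1 differed by 1.02 in HPA-12 vs DMSO, 3.74 in crenolanib vs DMSO, 8.30 in combination vs DMSO, 4.56 in combination vs crenolanib, 7.29 in combination vs HPA-12 and 2.73 in crenolanib vs HPA-12. The interaction of LMO2 turned to -0.044 with mitochondrial genes excluded from library totals, and over single libraries left out it ranged from -0.093 to 0.27, with -0.0067 without combination library 2. The cause was not tested.

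Whether replicate numbers pair the libraries was not settled. Of 18 same-number pairs 1 correlated over 0.1 (-0.03 to 0.12), while 8 of 12 libraries correlated best with their own number. With the replicate block the factors called were 8 in combination vs DMSO, 8 in crenolanib vs DMSO and 5 in HPA-12 vs DMSO. It ended 3 calls: GATA2 in combination vs DMSO (adjusted p = 0.0524), NFE2 in crenolanib vs HPA-12 (adjusted p = 0.0530) and ZFPM1 in the interaction (adjusted p = 0.0501).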
